A study of Homo sapiens with 4 samples.

Results

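The genes described here are subunits of the transcription factor NF-kB together with genes that NF-kB is known to switch on and that act back on it or mark its activity, in a breast cancer cell line sorted by aldehyde dehydrogenase (ALDH) status. The 10 genes listed were NFKB1, NFKB2 and RELB (subunits), NFKBIA, NFKBIE and NFKBIZ (inhibitor family), TNFAIP3 and BIRC3 (feedback enzymes), and TNFAIP2 and ICAM1 (targets). All probe sets annotated to 1 of these genes alone were taken, which gave 17 probe sets for 9 of the genes, out of 19775 genes for which the array has a probe set annotated to them alone. No probe set carried BIRC3 alone in the annotation used here, so that BIRC3 has no value below. The rule uses gene names and no measured value, but the genes were proposed with earlier results of these data known.

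The cells were SUM159, an established human line from a breast cancer that lacks hormone receptors and has mesenchymal traits, carrying the inducible vector pTRIPZ with the microRNA miR-100. There were 4 groups with 1 array each: ALDH-positive cells without (control) or with DOX, and ALDH-negative cells without or with DOX. All 4 groups carried the construct, were separated by flow cytometry and were cultured in suspension, the DOX groups with doxycycline. The labels give 10 h and doxycycline in the titles, but 13 h and doxorubicin, a different drug, in the sample descriptions. The stated aim was to find what miR-100 acts on in stem-like cells and in the others. Treated cells lacking the construct were not analysed here, and the arrays do not measure mature miR-100, so that its induction was not checked.

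NF-kB is held in the cytoplasm by inhibitors of the IkB family. Signals from cytokine receptors activate the IKK kinase, which marks IkB-alpha for destruction and frees dimers such as p50-RelA, while a slower branch processes the NFKB2 product to p52, the partner of RelB. The freed dimers switch on chemokines, adhesion molecules and survival genes, and also their own brakes, IkB-alpha (NFKBIA) and A20 (TNFAIP3). In breast cancer NF-kB activity is known above all from lines of basal and mesenchymal type.

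The sequence that the construct was built to express, and the promoters of the members that carry NF-kB recognition sequences, are shown to make the system concrete. The mature strand hsa-miR-100-5p, from RefSeq on GRCh38.p14, lies at chr11:122152275-122152296 on the minus strand. Capitals mark its seed, bases 2 to 8, with which a microRNA pairs to its targets.
hsa-miR-100-5p: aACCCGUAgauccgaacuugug
RefSeq promoter windows on GRCh38.p14 were found for 8 of the 10 genes, 12 windows in all since some genes have several start sites, and the 250 bases before each start were searched on both strands. The kB consensus, the degenerate motif bound by NF-kB dimers, occurred in 8 of the 12 windows and in windows of 6 of the 8 genes, against 5.21% of the 35116 windows of all genes. The looser GGGNNNNNCC, which contains every kB consensus match on one strand or the other, occurred in all 12 and in 54.4% of all windows. The NFKBIA window (chr14:35404750-35404999, minus strand), the NFKBIZ window that precedes its first start site (chr3:101827740-101827989, plus strand) and the corresponding NFKB1 window (chr4:102501109-102501358, plus strand) are printed with kB consensus matches in capitals, because these genes belong to the inhibitors and subunits whose values follow.
NFKBIA: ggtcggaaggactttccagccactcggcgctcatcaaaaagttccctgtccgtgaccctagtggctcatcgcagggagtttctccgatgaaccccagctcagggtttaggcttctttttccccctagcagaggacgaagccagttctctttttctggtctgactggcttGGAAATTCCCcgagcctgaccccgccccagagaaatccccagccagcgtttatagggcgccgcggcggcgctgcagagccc
NFKBIZ: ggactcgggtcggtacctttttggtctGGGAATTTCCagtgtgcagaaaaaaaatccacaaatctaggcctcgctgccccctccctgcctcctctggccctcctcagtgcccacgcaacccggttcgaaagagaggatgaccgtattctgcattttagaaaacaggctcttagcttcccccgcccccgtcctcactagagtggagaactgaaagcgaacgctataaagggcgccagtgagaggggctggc
NFKB1: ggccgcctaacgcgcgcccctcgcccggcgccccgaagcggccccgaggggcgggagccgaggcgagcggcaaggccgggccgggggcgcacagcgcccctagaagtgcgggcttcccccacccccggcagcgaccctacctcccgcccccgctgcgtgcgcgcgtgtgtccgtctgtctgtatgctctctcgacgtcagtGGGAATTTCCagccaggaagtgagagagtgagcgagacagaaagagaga
In the TNFAIP3 window 2 matches lay close together, and a stretch of 30 bases that ends 46 bases before the start (chr6:137867184-137867213, plus strand) holds both.
TNFAIP3: gtgactttGGAAAGTCCCgtGGAAATCCCC
The windows of ICAM1 and TNFAIP2 held no kB consensus match, which says only that these letters are not in the windows searched. Near matches were not counted, and the ICAM1 window holds tggaaattcc, which departs from the consensus at its first base alone. A match describes the sequence, and binding was not measured.

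The deposited values are log2 probe set levels. A level of 6 was taken as the edge of background, and a difference between a pair of arrays was called at 2-fold, an absolute log2 difference of 1. Since each group held a single array, such differences carry neither a replicate check nor a test. Of the 17 probe sets, 14 reached the level of 6 in all 4 arrays, 1 in some and 2 in none. The names of 11 end in _s_at or _x_at, kinds that can hybridise to several transcripts. All probe sets of NFKBIZ, TNFAIP3, TNFAIP2 and ICAM1 are of these kinds. In counts of genes, each gene is represented by its probe set of highest mean, and all 9 such probe sets were at the level of 6 in every array.

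The line's own markers VIM, CD44, AXL and CAV1 were well above the level of 6 in every array, and ESR1 and PGR were under 6. ALDH1A1 stood at 11.77 (control) and 10.66 (DOX) in ALDH-positive and at 10.72 and 10.86 in ALDH-negative cells. ALDH1A3, the only other of 5 ALDH genes listed to reach 6, stood at 6.48, 6.64, 5.86 and 7.79. Neither was higher in the ALDH-positive than in the ALDH-negative DOX array, with differences of -0.20 and -1.15. Leukocytes also express NF-kB genes. Of 22 leukocyte markers 19 had a probe set and 4, 6, 2 and 3 reached a level of 6 in the 4 arrays. Their summed level was 11.60 and 11.95 in ALDH-positive and 10.37 and 10.42 in ALDH-negative arrays on the log2 scale, mostly through LAPTM5 and CD74. The markers PTPRC, CD3E, CD2 and CD14 were under 6 in all arrays, but MS4A1 (6.21), S100A8 (6.54) and HLA-DRA (6.43) reached 6 in the ALDH-positive DOX array. Of 6 leukocyte markers tested in the additive limma model described below, 4 passed as higher in ALDH-positive cells and none as lower. Over all genes 13.5% passed as higher and 9.58% as lower. The 4 were LAPTM5 (1.82), CD74 (1.82), HLA-DRA (1.39) and MS4A1 (1.35). HLA-DRA and MS4A1 were under 6 in both ALDH-negative arrays. With levels under 6 set to 6, HLA-DRA differed between the fractions by 0.02 (control) and 0.43 (DOX), and MS4A1 by 0.00 and 0.21. Of 10 endothelial markers 2 or 3 reached the level of 6, with summed levels of 9.79, 9.90, 10.51 and 10.45, and CDH5 and VWF were under 6. The receptor KDR was at 8.21 and 7.53 in ALDH-positive and at 5.13 and 4.77 in ALDH-negative arrays, and the adhesion molecule PECAM1 ran the other way, at 5.96 and 7.56 against 9.77 and 9.62. Both passed the model, at 2.92 and -2.93. RNA control probe sets also differed in the ALDH-positive DOX array. For 18S ribosomal RNA the 3' and 5' probe sets stood at -1.90 and -1.94 against the ALDH-positive control, against 0.45 and 0.20 in the ALDH-negative pair. For the middle part of beta-actin that array was lowest, at 12.27 against 12.94, 12.93 and 12.91, and the 3' probe set was at -0.07 against the ALDH-positive control. At the 5' end of beta-actin the ALDH-positive control was the array apart, at 10.63 against 10.17, 10.10 and 9.99. GAPDH was at 0.39 at its 5' end. The part of these probe sets in the DOX values below, and of the leukocyte and endothelial markers in the ALDH differences, was not tested. In sorted bulk samples, fewer cells of a type and less RNA per cell cannot be told apart.

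The subunit genes were at their highest in 1 of the ALDH-positive arrays. NFKB1, which encodes p105 and its product p50, had log2 levels of 10.80 (control) and 10.49 (DOX) in ALDH-positive cells, and of 10.10 (control) and 10.16 (DOX) in ALDH-negative cells. The ALDH difference was 0.70 in the control pair and 0.34 in the DOX pair on the log2 scale. NFKB2, which encodes p100 and its product p52, was at 8.67, 9.03, 8.15 and 8.13 in the same order of arrays. Its ALDH difference was 0.52 without DOX and 0.90 with it. A second NFKB2 probe set was at 6.49 and 6.76 in the ALDH-positive arrays and under the level of 6 in the ALDH-negative arrays, at 5.32 and 5.56, and the remaining one was under 6 throughout. RELB, the partner of p52, was at 7.51, 7.54, 6.97 and 6.86, with ALDH differences of 0.54 and 0.68.

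The subunits had small DOX differences. The DOX difference was -0.31 for NFKB1, 0.37 for NFKB2 and 0.03 for RELB in ALDH-positive cells. The corresponding differences in ALDH-negative cells were 0.06, -0.02 and -0.11. No subunit reached 1.5-fold in either fraction.

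**Figure D1:**
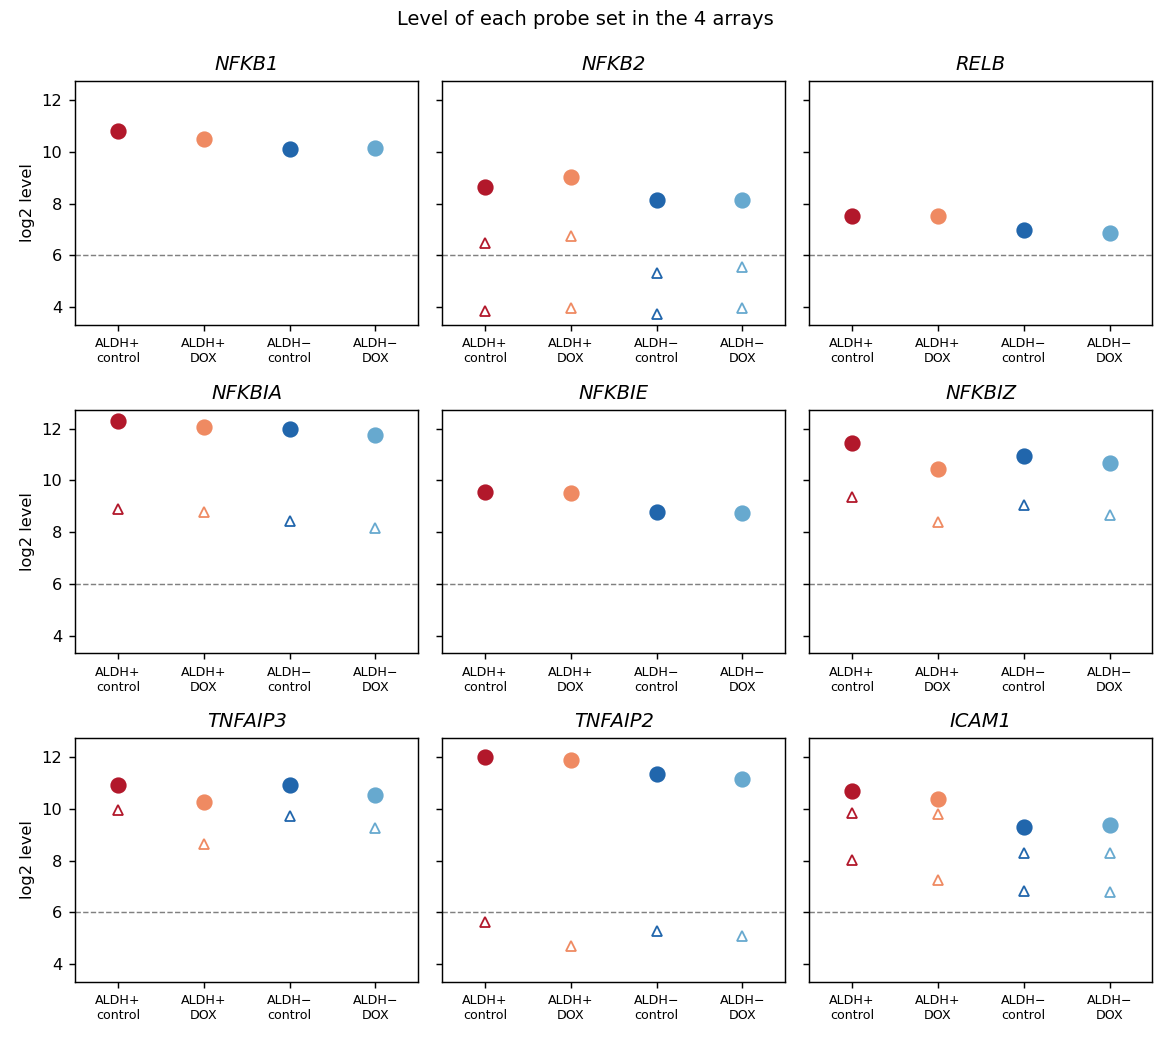
Log2 level (vertical axis) of each probe set in the 4 arrays (horizontal axis), 1 panel per gene. Filled circles are the probe set that stands for the gene, open triangles the other probe sets, and the dashed line is the level of 6. Each point is 1 array, so there are no error bars. NFKBIE sits at 9.55 and 9.52 in ALDH-positive and at 8.77 and 8.76 in ALDH-negative cells, while NFKBIZ is lowest in ALDH-positive DOX at 10.45.

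Among the inhibitors, NFKBIE had the widest ALDH difference without DOX and NFKBIZ the widest DOX difference in ALDH-positive cells. NFKBIA, the IkB-alpha inhibitor and a rapid NF-kB target, was at 12.31 (control) and 12.07 (DOX) in ALDH-positive cells, and at 12.01 and 11.77 in ALDH-negative cells. It was lower with DOX by nearly the same amount in each fraction, with differences of -0.25 and -0.24, and its second probe set gave -0.10 and -0.27. NFKBIE, which encodes IkB-epsilon, was at 9.55, 9.52, 8.77 and 8.76. Its DOX differences were -0.03 and -0.01, and its ALDH differences 0.78 and 0.76.

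NFKBIZ encodes IkB-zeta, an atypical family member that acts in the nucleus and helps to switch on secondary targets such as IL6. Its levels were 11.43 (control) and 10.45 (DOX) in ALDH-positive cells, and 10.94 and 10.66 in ALDH-negative cells. The DOX difference of -0.98 in ALDH-positive cells was just under 2-fold, and the second probe set, at 9.38 and 8.39, gave the same -0.98. In ALDH-negative cells the differences were -0.28 and -0.36. Its ALDH difference was 0.50 without DOX and -0.21 with it, and both probe sets turned sign between the treatments. Of 12151 genes compared in the ALDH-positive pair 2.42% lay at or below the NFKBIZ value, and 4.59% of 11819 in the ALDH-negative pair.

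TNFAIP3, the ubiquitin-editing enzyme A20 that shuts off IKK signalling, was likewise lowest in DOX-treated ALDH-positive cells, on both of its probe sets. It was at 10.94 (control) and 10.27 (DOX) in ALDH-positive cells, and at 10.93 and 10.55 in ALDH-negative cells. The DOX difference was -0.67 in the former and -0.38 in the latter. The second probe set gave -1.32, from 9.95 to 8.63, and -0.48, and it was the only one of 15 member probe sets compared that was 2-fold or more lower with DOX in ALDH-positive cells. The control arrays of the fractions were alike at 0.01, or 0.21 by the second probe set. At or below the TNFAIP3 value lay 5.23% of genes in the ALDH-positive pair and 2.29% in the ALDH-negative pair. The array in which NFKBIZ and TNFAIP3 were lowest is also the one in which the 18S probe sets at both ends and the middle beta-actin probe set were lowest.

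By the probe set that stands for each gene, ICAM1 had the widest ALDH difference of all members, with and without DOX. The second NFKB2 probe set, under 6 in the ALDH-negative arrays, gave 1.16 without DOX and 1.20 with it. ICAM1, the adhesion molecule that binds leukocyte integrins, was at 10.70 (control) and 10.39 (DOX) in ALDH-positive cells, against 9.29 and 9.39 in ALDH-negative cells. The ALDH difference passed 2-fold at 1.41 (control) and barely at 1.00 (DOX), and after centring each array on its median the latter did not. The other ICAM1 probe sets gave 1.56 and 1.21 in the control arrays, and 1.51 and 0.47 in the DOX arrays. They also parted under DOX in ALDH-positive cells, where the 3 probe sets stood at -0.31, -0.04 and -0.78, so that the DOX value of ICAM1 depends on the probe set. TNFAIP2, a tumour necrosis factor-induced gene linked to membrane protrusions, was at 12.00, 11.90, 11.33 and 11.14, with ALDH differences of 0.67 and 0.76 and DOX differences of -0.10 and -0.19. Its second probe set was under the level of 6 in all arrays.

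**Figure D2:**
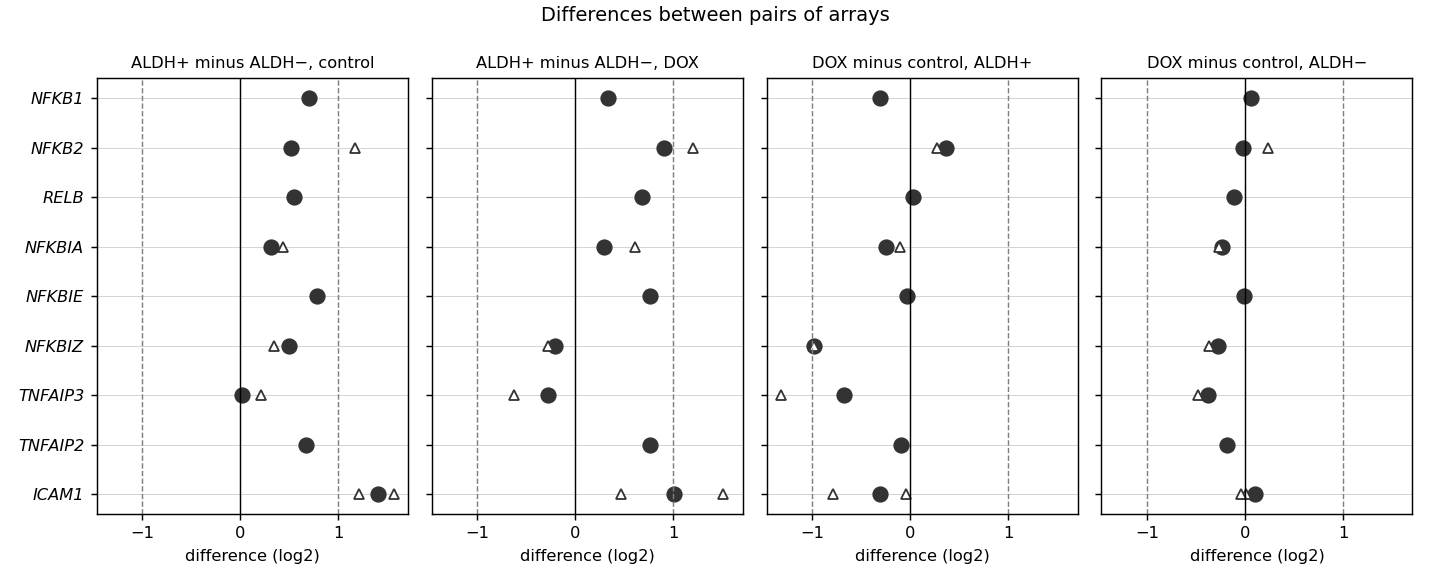
Difference of log2 levels (horizontal axes) for each gene (vertical axis) in 4 pairs of arrays. Filled circles are the probe set that stands for the gene and open triangles other probe sets that reached a level of 6. Dashed lines mark 2-fold. In the control comparison of the fractions all points lie above 0, and NFKBIZ and TNFAIP3 are the furthest below 0 under DOX in ALDH-positive cells.

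Counted over genes, all 9 measured members lay above 0 in the comparison of the control fractions, with a median of 0.54, against 49.6% of all 12052 genes above 0 and a median of -0.00. ICAM1 was the 1 member called 2-fold higher, where 6.09% of all genes were called higher, and none was called lower, where 4.40% were. At 1.5-fold, 4 members were higher (ICAM1, NFKBIE, NFKB1 and TNFAIP2) and none lower, where 13.8% and 12.3% of all genes were. In the DOX arrays 7 members lay above 0 and 2 below, with a median of 0.68 against 0.08 over 12228 genes, of which 55.7% lay above 0. ICAM1 was again the 1 called member, where 11.4% of all genes were called higher and 5.32% lower. At 1.5-fold, 5 members were higher (ICAM1, NFKB2, NFKBIE, TNFAIP2 and RELB) and none lower, where 22.9% and 12.6% of all genes were. The ALDH comparisons share no array with each other. The single 2-fold call among 9 genes is near the shares of all genes and is no result about the members.

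Under DOX in ALDH-positive cells 60.9% of all 12151 genes lay above 0, with a median of 0.12. Of the members 7 lay below 0 and 2 above, with a median of -0.25. None was called by the 2-fold rule, where 3.47% of genes were called higher and 2.30% lower. At 1.5-fold NFKBIZ and TNFAIP3 were lower and none higher, where 6.82% of all genes were lower and 14.6% higher. In ALDH-negative cells 48.7% of 11819 genes lay above 0, with a median of -0.00. There 7 members also lay below 0, with a median of -0.11. None was called there either, where 0.271% of genes were called higher and 0.0508% lower, nor at 1.5-fold, where the shares were 1.15% and 0.618%. When the ALDH-negative DOX difference was subtracted from the ALDH-positive one, the median over members was -0.02 against 0.11 over all genes, and none reached 2-fold, where 3.78% were called higher and 2.40% lower. NFKBIZ, at -0.70, was the only one past 1.5-fold, where 14.8% of genes were higher and 7.50% lower. This difference rests on 4 arrays and was not tested.

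Mean ALDH and DOX differences were tested by an additive model of the 4 arrays, which uses the control and the DOX pair as repeats of each other. It was fitted to 12365 genes with limma and left 1 residual degree of freedom, to which limma adds a prior shared by all genes. At a Benjamini-Hochberg adjusted p under 0.05, 13.5% of all genes passed as higher in the ALDH-positive fraction and 9.58% as lower. Of the 9 members 3 were higher and none lower. ICAM1 was higher by 1.20 ± 0.24 (SE, limma adjusted p = 0.00382), TNFAIP2 by 0.71 ± 0.15 (SE, limma adjusted p = 0.00592) and NFKBIE by 0.77 ± 0.25 (SE, limma adjusted p = 0.0450), each in both pairs of arrays. The estimates for NFKB2 (0.71), RELB (0.61), NFKB1 (0.52) and NFKBIA (0.30) did not pass, with limma adjusted p of 0.0782, 0.135, 0.112 and 0.112. NFKBIZ and TNFAIP3 stood at 0.14 and -0.13 and did not pass. ICAM1 passed in every alternative fit that held it, and the other calls did not. When the prior variance was not allowed to vary with expression, 1 member passed, which was ICAM1, with limma adjusted p of 0.0666 for TNFAIP2 and 0.0552 for NFKBIE. With the mean of its probe sets, 1 of them under the level of 6, TNFAIP2 stood at 0.34 (limma adjusted p = 0.260). NFKBIE missed after centring on the array median (limma adjusted p = 0.0520) and with no filter on level (limma adjusted p = 0.120). Whether the samples came from separate sorts or cultures is not given. The spread behind these p-values is the gap between the control and the DOX pair, moderated by the shared prior. No spread between replicates was measured, and the gap may be technical.

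For DOX no member passed in the limma model, where 0.00809% of genes were higher and none lower. At an unadjusted p under 0.05 there were 2 members, NFKBIZ (-0.63 ± 0.22, SE, limma adjusted p = 0.855) and TNFAIP3 (-0.53 ± 0.21, SE, limma adjusted p = 0.858). Unadjusted, 652 of the 12365 genes were under 0.05, or 5.27%. Both genes were lower with DOX in both fractions. The model takes any difference in response between the fractions as error.

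The rest of the pathway was followed in lists of genes by role. Of 7 other subunits and inhibitors, 5 were measured at a level of 6 or more. They had a median ALDH difference of 0.14 in the control arrays, and none reached 2-fold in any comparison. Over all genes the shares called at 2-fold ran from 0.0508% to 11.4%. None among 5 genes is near these shares and is no result about this list. RELA, which encodes the main activating subunit, was at 11.48, 11.66, 11.24 and 11.16, and REL at 9.60, 9.91, 9.46 and 9.33. No gene of this list passed the additive model for ALDH or DOX. Over all genes 13.5% passed as higher and 9.58% as lower for ALDH, and 0.00809% as higher for DOX.

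Among 23 genes of the IKK complex and the adaptors and kinases around it, 20 were measured, with a median of 0.10 between the control fractions. RBCK1 (HOIL-1), a subunit of the linear ubiquitin ligase that feeds IKK, was at 12.51 and 12.55 in ALDH-positive and at 11.34 and 11.45 in ALDH-negative cells. It was the 1 gene of 20 tested in this list that passed for ALDH, higher by 1.13 ± 0.13 (SE, limma adjusted p = 0.000118). Over all genes 13.5% passed as higher and 9.58% as lower. IKBKE, an IKK-related kinase, was lowest in the ALDH-positive control at 6.09, near the edge of background, against 7.45, 7.20 and 7.30 elsewhere. Its DOX difference was 1.36 in the ALDH-positive fraction and 0.10 in the ALDH-negative one. TAB1, an adaptor of the TAK1 kinase, was 2-fold higher in ALDH-positive cells in the DOX arrays alone, by 1.09.

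Of 15 other negative regulators 13 were measured, with a median of 0.27 between the control fractions. Of these, 3 were higher in ALDH-positive cells in the additive model and none lower, beside 13.5% and 9.58% of all genes: PDLIM2, which promotes the loss of nuclear RelA (1.12), TAX1BP1, an adaptor of A20 (0.78), and TNIP1, which binds A20 (0.33), with limma adjusted p of 0.00565, 0.00545 and 0.0454. ITCH, a ubiquitin ligase that works with A20, went from 10.62 to 9.59 with DOX in ALDH-positive cells (-1.03), and its difference in ALDH-negative cells was -0.05.

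Of 19 ligands and receptors that start the signal, 13 were measured, and 3 were 2-fold or more lower with DOX in ALDH-positive cells and none higher, beside 2.30% and 3.47% of all genes. The cytokines IL1A and IL1B stood at -2.30 and -1.54 with DOX in ALDH-positive cells, and the co-receptor IL1RAP at -1.23, where the IL1A probe set is of a kind that can hybridise to several transcripts. The same cytokines stood at 0.75 and 0.93 with DOX in ALDH-negative cells, and IL1RAP at 0.02. IL1A was highest in the ALDH-positive control at 10.86, with 8.56 in the ALDH-positive DOX array and 8.16 and 8.90 in the ALDH-negative arrays. Its ALDH difference was 2.70 without DOX and -0.34 with it. IL1B was lowest in the ALDH-positive DOX array at 7.35, against 8.89, 8.46 and 9.38. TNF was under the level of 6 in all arrays, between 4.31 and 4.59. IL1R1, the IL-1 receptor, was lower in ALDH-positive cells by the additive model, with -0.85 ± 0.17 (SE, limma adjusted p = 0.00320). It was the 1 gene of 13 tested in the list to pass, beside 9.58% of all genes lower and 13.5% higher.

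Other target genes divided. Of 30 listed, 26 were tested in the additive model, 9 were higher in ALDH-positive cells and 7 lower, beside 13.5% and 9.58% of all genes. The endothelial-type adhesion molecule VCAM1 was higher by 2.70, the acute phase protein SERPINA3 by 2.30, the chemokine CCL5 by 1.91 and the iron-binding LCN2 by 1.59. In the other direction PTGS2, the inducible cyclooxygenase, stood at -1.65, the growth factor CSF3 at -1.43, CCL20 at -1.33 and CXCL8 at -1.01. The last pair did not differ by much between the control fractions (-0.06 and 0.01), and their estimates came from the DOX arrays (-2.60 and -2.04). VCAM1 was under the level of 6 in the ALDH-negative control, and with levels under 6 set to 6 its control difference was 1.90 in place of 2.95. Under DOX in ALDH-positive cells 5 of 25 targets were 2-fold or more lower, led by CCL20 (-2.54), CXCL8 (-2.09), IL6 (-1.98) and PTGS2 (-1.30), and 1 was higher, PLAU at 1.24, beside 2.30% and 3.47% of all genes. With levels under 6 set to 6, 3 targets remained 2-fold lower, since PTGS2 stood at -0.99 and CXCL10 at -0.97 in place of -1.05. For IL6 the ALDH-positive control was the array apart, at 8.99 against 7.01 (ALDH-positive DOX), 7.46 and 7.13 (ALDH-negative). For CCL20 and CXCL8 it was the ALDH-positive DOX array, at 7.18 and 9.85. CCL20, CXCL8, IL6 and PTGS2 stood at -0.00, -0.04, -0.33 and -0.64 with DOX in ALDH-negative cells. There CCL2 (1.90, or 1.23 with levels under 6 set to 6) and VCAM1 (1.11, or 0.06) were 2-fold higher and CXCL10 lower (-1.03, or -0.23), beside 0.271% and 0.0508% of all genes.

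**Figure D3:**
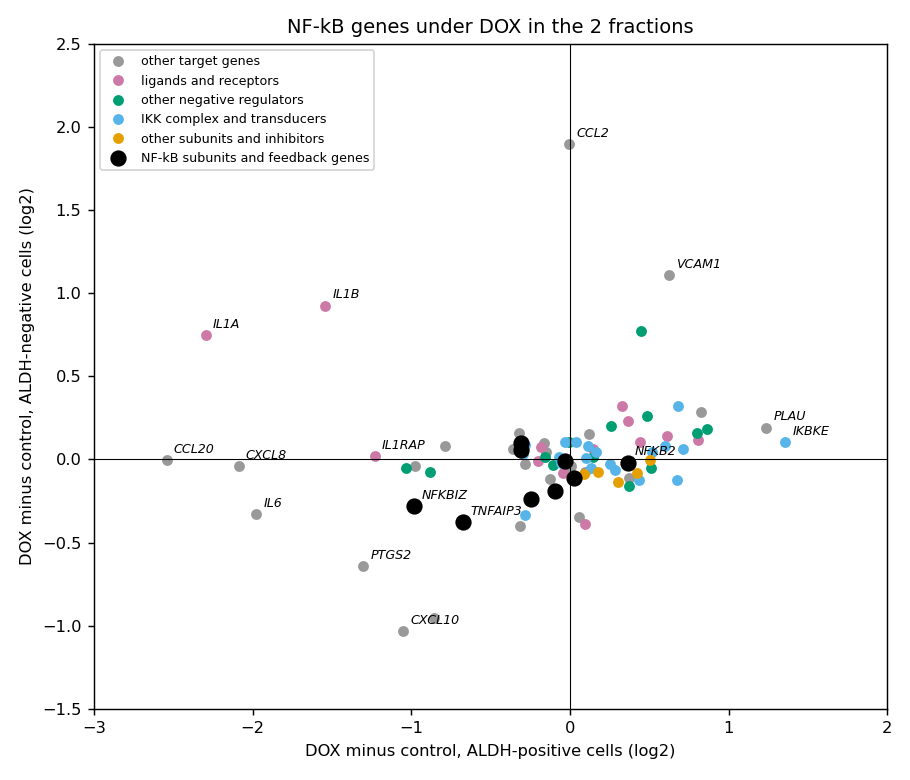
DOX difference in ALDH-positive cells (horizontal axis, log2) against that in ALDH-negative cells (vertical axis, log2), each point 1 gene that reached 6 in 1 or more of the arrays. Colours give the lists, with the subunits and feedback genes in large black points. NFKBIZ (-0.98 and -0.28) and TNFAIP3 (-0.67 and -0.38) are below 0 in both fractions, while CCL20 and CXCL8 lie far to the left near 0 on the vertical axis.

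Over all 94 pathway genes outside the members, 76 were compared between the control fractions, 11 of them 2-fold higher and 5 lower, with a median of 0.14, beside 6.09% and 4.40% of all genes. Under DOX in ALDH-positive cells 2 of 76 were 2-fold higher and 9 lower, or 7 with levels under 6 set to 6, with a median of 0.10, beside 3.47% and 2.30% of all genes. In ALDH-negative cells 2 of 77 were higher and 1 lower, or 1 and 0 with that floor, beside 0.271% and 0.0508% of all genes.

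Members with the widest range over the arrays were set against all 12365 genes by the distance between gene-centred log2 levels over the 4 arrays, as a description only. Nearest to ICAM1 were EIF4E3 (distance 0.05), CORO2A (0.07) and TTLL11 (0.08), of which CORO2A reached the level of 6 in the ALDH-positive control alone. Nearest to NFKBIZ were PER2 (0.07), IL12A (0.10) and USP3-AS1 (0.12), of which IL12A reached the level of 6 in the ALDH-positive control alone. Nearest to NFKB2 were CHD6 (0.02), KICS2 (0.04) and ENKD1 (0.04).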

How the data were processed

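RNA of 4 samples was hybridised to Affymetrix whole-genome arrays, 1 per group. The authors deposited log2 probe set values, made with RMA per the submitters' processing notes, which subtracts background, makes the distributions of the arrays equal and joins the probes of a set. No version of RMA is stated. Array medians lay between 6.18 and 6.22, and between 11601 and 11935 of 19775 genes reached a level of 6 in an array. The number of arrays limits the precision.

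An array annotation gave 41097 of 54675 probe sets 1 gene, 1801 several and 11777 none. Control probe sets, 62 in number, were left out. Symbols were updated by gene identifier, which matched for 41043 probe sets. For gene counts the probe set of highest mean stood for the gene. Differences between arrays were called when they reached 1 in size and either array reached 6. The additive model used limma 3.58.1 (lmFit, eBayes with trend, prior of 11.6 degrees of freedom) in R 4.3.3, with two-sided p-values adjusted by Benjamini and Hochberg over 12365 genes. The steps were checked on simulated data. These had a common spread for all genes, equal ALDH changes in both treatments and no DOX effect. The check therefore does not show how the p-values behave where the fractions respond differently.

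The members and gene lists were chosen with earlier results of these data known. All members are named. From each other list up to 4 genes with the largest differences past 2-fold in a comparison were eligible, and TAX1BP1, TNIP1, IL1R1, CSF3, PLAU, RELA, REL, TNF and the cell markers were named after their values were seen. Genes nearest in pattern were the 3 with the smallest Euclidean distance, for the 3 members of widest range. Alternatives were centring on the array median, cyclic loess, no filter on level or a level of 7, levels under 6 set to 6, the mean of probe sets, leaving out probe sets ending in _s_at or _x_at, a size of 1.5-fold, and eBayes without trend or robust. Calculations used Python 3.11.15, numpy 2.4.6 and pandas 2.3.3.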

Additional observations from a re-analysis of the deposited data

Results flagged for a closer look

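For some members the DOX difference went opposite ways in the fractions, with 1 array each, and the size of the gap between the DOX differences (ALDH-positive minus ALDH-negative) was not tested. NFKB1 had a gap of -0.37, NFKB2 of 0.38, RELB of 0.14 and ICAM1 of -0.41 on the log2 scale. For NFKBIZ and TNFAIP3 the ALDH difference turned from above 0 in the control to below 0 in the DOX arrays, with gaps of -0.70 and -0.29, also untested.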

How the results depend on the processing

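No paired analysis was possible because the labels give no replicate numbers shared between groups, beyond the additive model itself, which takes the ALDH difference within each treatment and the DOX difference within each fraction. With 1 array per group, none could be left out without losing a group. At 1.5-fold the members lower with DOX in ALDH-positive cells were 2 in place of 0, those lower in the difference between fractions 1 in place of 0, and those higher in ALDH-positive cells 4 without DOX and 5 with it, in place of 1 and 1. In the DOX arrays the 1 member past 2-fold, ICAM1, was at 0 members after centring on the median, after cyclic loess, and with the mean of probe sets. Without probe sets ending in _s_at or _x_at only 5 members were left, because NFKBIZ, TNFAIP3, TNFAIP2 and ICAM1 have no other kind, and 0 members passed 2-fold in either ALDH comparison. In the additive model that setting and eBayes without trend each left 1 member higher in ALDH-positive cells in place of 3. ICAM1 passed in all 7 alternatives that held it (limma adjusted p between 0.000665 and 0.0422), TNFAIP2 in 5 of 7 (between 0.00192 and 0.260) and NFKBIE in 5 of 8 (between 0.0312 and 0.120). No member passed for DOX in any alternative. No called value turned sign.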
